A study of Mus musculus with 15 samples.

Results

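The comparison between calcium phosphate (CaP) and silica (SiO2) microrods was described from 6 of the 15 RNA-seq libraries of the series, 3 per microrod, and covers the 16621 of 78317 gene identifiers that passed a filter on low counts. All cells were MH-S cells, a line made from mouse alveolar macrophages by transformation with SV-40, and all libraries shared one cell passage. Wells received CaP-Alg-Prot/CMC(3DL) or SiO2-Alg-Prot/CMC(3DL) microrods for 24 h, at 0.1 mg/mL and 200 µL per well, and M0 wells received medium alone. The microrods shared the rod shape and 3 double layers of protamine and carboxymethyl chitosan. Both also had alginate, set with calcium chloride, as the crosslinker of the nanoparticles, so the nanoparticle core was the named difference. The dose was equal by mass and not by number of rods. Each microrod well held its own particle batch. P-values therefore measure the spread over wells, with cell passages left out of it. That spread includes particle batches in the microrod groups but not in the M0 wells, which the main model also used to estimate it. Serpinb1a, Rcan1 and Mmp12 were the genes taken beforehand as markers of the comparison, from earlier results of these data.

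Macrophages take up micrometre-sized particles by phagocytosis and enclose them in phagosomes, which fuse with lysosomes and are acidified by the V-ATPase proton pump. Calcium phosphate is the mineral of bone and dissolves in acid into calcium and phosphate ions, while silica itself dissolves slowly and releases no calcium. The SiO2 microrods were still not made without calcium, since their alginate was set with calcium chloride. A rise of calcium in the cytosol activates the phosphatase calcineurin, which lets NFAT transcription factors enter the nucleus, and osteoclasts, the macrophage relatives that resorb bone mineral, depend on this pathway. NF-kB and interferon pathways are the other main routes by which macrophages change transcription after contact with foreign material.

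Library totals were between 14632876 and 50729211 counts with CaP, between 12646926 and 24990730 counts with SiO2 and between 8459643 and 39201265 counts in M0. The summed level of 8 macrophage markers was 2720 to 3130 CPM (the count relative to the scaled library size) with CaP and 2890 to 3260 CPM with SiO2. The 7 markers of alveolar macrophages summed to only 3.32 to 6.26 CPM over the 6 microrod libraries, with Chil3 at 0 counts in all of them and Siglecf and Car4 at no more than 3 counts, so the alveolar identity in the labels was not carried by these markers. Markers of T cells, lung epithelium and fibroblasts summed to no more than 0.166 CPM in any microrod library, those of B cells to 0.307 to 0.733 CPM and those of neutrophils to 0.923 to 1.31 CPM. The 4 endothelial markers summed to 1.75 to 2.13 CPM with CaP, 1.84 to 2.28 CPM with SiO2 and 0.705 to 1.25 CPM in M0, with Vwf as the largest part in both microrod groups, at 0.832 to 1.39 CPM with CaP and 1.49 to 1.61 CPM with SiO2. Mitochondrial transcripts made up 1.21 to 1.51% of counts with CaP and 1.13 to 1.37% with SiO2. SiO2 replicate 2 stood apart on the first principal component of the 6 libraries, at 45.2 against -25.0 to 9.33 for the others. CaP replicate 1 differed from the other CaP libraries more than they did from each other (chi-square per gene 117 and 168 against 19.5), and ribosomal protein transcripts made up 10.3% of its counts against 7.16 and 8.25%. Values without either library are given beside many, but not all, of the gene lists whose medians or counts they moved. In such bulk libraries, a gene carried by fewer cells and one with less RNA per cell cannot be told apart.

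Few genes were called different between CaP and SiO2 microrods. A gene was called a DEG at an adjusted p-value below 0.05 and an absolute log2FC above 0.5, with edgeR's quasi-likelihood test in a model of the 9 CaP, SiO2 and M0 libraries. Of the 16621 genes, 4 were DEGs (0.0241%), of which 3 were higher with CaP (0.018%) and 1 was lower (0.00602%). Serpinb1a, Rcan1 and Spink5 were higher with CaP and Mmp12 was lower. DESeq2 on the same libraries called 16 DEGs (0.0963%), 13 higher (0.0782%) and 3 lower (0.018%), and these included all 4 of edgeR. For comparison, the same edgeR model gave 70 DEGs between CaP and M0 (0.421%) and 10 between SiO2 and M0 (0.0602%). Before adjustment, 311 genes had an edgeR p below 0.05 (1.87%), 161 higher (0.969%) and 150 lower (0.902%) with CaP, and DESeq2 gave 231 (1.39%). This edgeR count was 1377 without CaP replicate 1 and 262 without SiO2 replicate 2, with 3 DEGs and 1 DEG. The 3 CaP libraries lay entirely above or below the 3 SiO2 libraries in 1344 genes (8.09%), above in 571 (3.44%) and below in 773 (4.65%). Over all genes tested, 55.6% had a log2FC above 0, with a median of 0.03. The plot of log2FC against level shows the called genes outside a band that narrows towards high CPM.

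**Figure D1:**
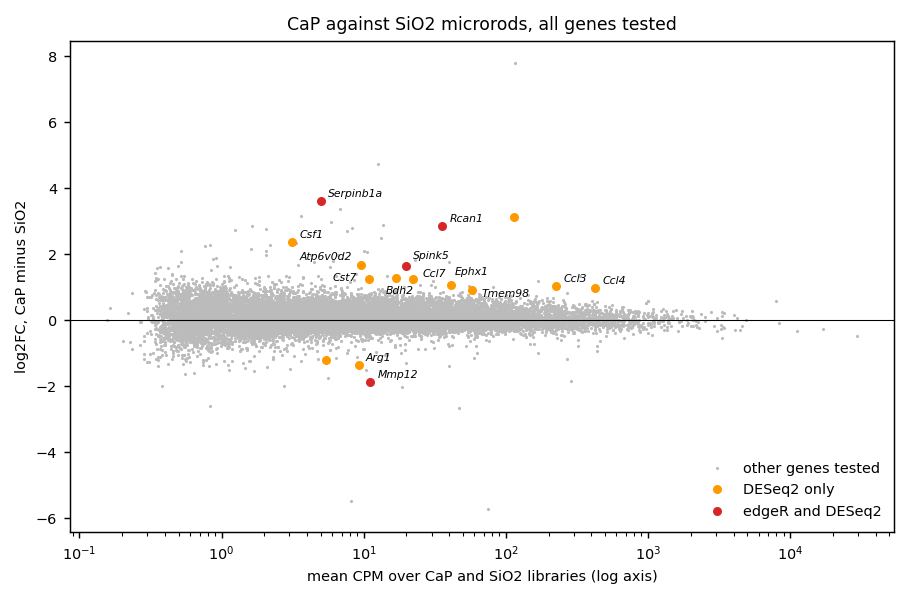
Each point is 1 of the 16621 genes tested, with the mean CPM over the 6 microrod libraries on a log axis and the log2FC of CaP minus SiO2. Red points mark the 4 DEGs of both tools and orange points the genes called by DESeq2 alone, while unlabelled orange points have no symbol, and single grey points at a log2FC of 7.79 (Zfp12) and -5.73 (A830008E24Rik) rest on single libraries or on libraries that disagree.

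Serpinb1a encodes a serpin that inhibits the serine proteases of neutrophil granules, such as elastase and cathepsin G. Its level was 9.05, 8.99 and 9.56 CPM in the 3 CaP libraries, 0.843, 0.920 and 0.562 CPM with SiO2 and 0.293, 0.395 and 0.470 CPM in M0. The CaP libraries were all above the SiO2 libraries and differed little among themselves, and the gene was close to undetected in M0, with at most 11 counts in a library. The difference was 12.2-fold (log2FC 3.61 ± 0.25 SE, 95% interval 3.06 to 4.16, edgeR adjusted p = 0.000978). It remained a DEG without SiO2 replicate 2 (log2FC 3.72, adjusted p = 0.00953) and without every other single library. Salmon divides reads among similar genes, and the close paralogs Serpinb1b and Serpinb1c, at means of 1.43 and 1.23 CPM with CaP and 1.61 and 1.40 CPM with SiO2, did not pass the test, with log2FC of -0.21 (95% interval -0.92 to 0.51) and -0.19 (-0.78 to 0.41). Of the 21 serpins listed, 11 were tested, 2 had a log2FC above 0, their median was -0.14, and Serpinb1a was the only one that passed the test. The proteases that it inhibits were close to absent, since of 9 granule serine proteases only Prtn3 passed the filter, at 0.266 to 0.530 CPM with CaP and 0.307 to 0.644 CPM with SiO2.

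Spink5, a secreted inhibitor of serine proteases of the Kazal type that is best known from skin, was the other protease inhibitor among the edgeR DEGs. It was also higher with CaP. It was measured at 32.4, 27.6 and 30.1 CPM with CaP, at 9.37, 10.4 and 9.28 CPM with SiO2 and at 7.26, 6.91 and 6.82 CPM in M0. All CaP libraries lay above all others, and the SiO2 libraries lay just above M0. The 3.12-fold difference (log2FC 1.64 ± 0.16 SE, 95% interval 1.29 to 1.99) had an edgeR adjusted p of 0.0110. Without SiO2 replicate 2 the log2FC was 1.69 and the adjusted p 0.0919, and the call was lost in 5 of the 9 fits that left out a library.

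Rcan1 encodes an inhibitor of calcineurin and is itself a well-known NFAT target, which makes it a feedback gene of calcium signalling. Its level was 34.2, 73.8 and 80.9 CPM with CaP, 8.08, 10.4 and 7.55 CPM with SiO2 and 4.67, 6.32 and 4.47 CPM in M0. CaP replicate 1 was the lowest of the CaP libraries but still above every SiO2 library. The fold was 7.30 (log2FC 2.87 ± 0.33 SE, 95% interval 2.13 to 3.60, edgeR adjusted p = 0.0389). Only the fit without CaP replicate 1 kept this call among those that left out a library (adjusted p = 0.00277), while it was 0.125 without SiO2 replicate 2, at a log2FC of 3.01.

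Mmp12, the macrophage elastase that degrades elastin in the lung, was the only edgeR DEG that was lower with CaP. It was found at 5.22, 4.13 and 4.82 CPM with CaP, at 21.2, 14.0 and 17.2 CPM with SiO2 and at 1.07, 1.71 and 1.41 CPM in M0. The groups did not overlap, and both microrods lay above M0, with SiO2 highest. The level with CaP was 0.273 times that with SiO2 (log2FC -1.87 ± 0.23 SE, 95% interval -2.38 to -1.36), and the edgeR adjusted p of 0.0482 was close to the threshold. No fit without a library kept this call, with adjusted p between 0.0661 and 0.397 and log2FC between -2.01 and -1.71. Of the 11 tested metalloproteinases, ADAMs and related genes, no other had an interval apart from 0 with all libraries (2 others were higher at an unadjusted p below 0.05 without CaP replicate 1), and Mmp9 had a log2FC of 0.32 (95% interval -0.36 to 0.99) and Adam8 of 0.12 (-0.54 to 0.78).

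Promoter sequences of Rcan1 and Mmp12 are shown because Rcan1 has a start inside the gene that is known to respond to calcineurin, and the gene counts do not separate its starts. RefSeq lists 2 starts for each gene on GRCm38.p6, of which the outer Rcan1 start was not found in the GENCODE M21 transcripts and the other 3 were, and the 250 bases before each start are given 5′ to 3′ on the gene's strand. Capitals mark the NFAT core GGAAA on either strand (TTTCC on the other) and the AP-1 site TGANTCA. The windows are on chromosome 16, minus strand, for Rcan1 and on chromosome 9, plus strand, for Mmp12. In these windows, the inner Rcan1 start had 3 NFAT cores and 1 AP-1 match and the outer start had none of either. Mmp12 had no match before one start and 1 AP-1 match before the other. Over all 32841 promoters of the table, 55.6% held at least 1 NFAT core in such a window, 21.4% held 2 or more and 6.80% held an AP-1 match, and a match describes letters only. No promoter sequence of Serpinb1a was available, so it was not searched, and windows of Spink5, the other DEG, are not shown.
Rcan1 inner start, chr16:92400079-92400328: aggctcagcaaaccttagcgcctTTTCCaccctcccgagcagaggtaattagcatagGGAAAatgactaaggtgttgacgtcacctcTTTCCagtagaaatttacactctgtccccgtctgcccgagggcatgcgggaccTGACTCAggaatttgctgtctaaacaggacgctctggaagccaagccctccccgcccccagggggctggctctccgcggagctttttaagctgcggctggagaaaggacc
Rcan1 outer start, chr16:92466170-92466419: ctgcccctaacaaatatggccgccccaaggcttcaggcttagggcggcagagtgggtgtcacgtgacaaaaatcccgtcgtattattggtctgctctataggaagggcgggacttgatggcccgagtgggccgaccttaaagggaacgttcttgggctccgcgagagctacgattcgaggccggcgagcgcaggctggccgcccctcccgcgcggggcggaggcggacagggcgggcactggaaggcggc
Mmp12 first start, chr9:7344147-7344396: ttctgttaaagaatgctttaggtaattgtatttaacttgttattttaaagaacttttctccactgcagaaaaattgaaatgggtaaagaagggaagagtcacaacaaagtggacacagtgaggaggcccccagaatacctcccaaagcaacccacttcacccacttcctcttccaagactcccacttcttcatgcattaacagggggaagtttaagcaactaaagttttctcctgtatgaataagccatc
Mmp12 second start, chr9:7347124-7347373: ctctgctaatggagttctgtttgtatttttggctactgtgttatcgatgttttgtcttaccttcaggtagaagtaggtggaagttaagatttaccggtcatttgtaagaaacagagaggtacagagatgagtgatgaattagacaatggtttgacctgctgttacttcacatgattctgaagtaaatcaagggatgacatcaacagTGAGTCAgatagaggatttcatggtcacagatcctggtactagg

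DESeq2 called 12 further genes, none of which passed edgeR's test, whose smallest adjusted p among them was 0.0784. Those with a symbol are described here by role. Ccl3 and Ccl4, chemokines that attract leukocytes, were among the most abundant. Ccl3 was at 334, 306 and 272 CPM with CaP, 145, 142 and 155 CPM with SiO2 and 104, 98.5 and 116 CPM in M0. Ccl4 was at 636, 538 and 513 CPM with CaP, 277, 301 and 276 CPM with SiO2 and 113, 203 and 152 CPM in M0. For both chemokines every CaP library lay above every SiO2 library, by 2.06-fold for Ccl3 (log2FC 1.04 ± 0.14 SE, DESeq2 adjusted p = 4.57e-07) and 1.98-fold for Ccl4 (0.98 ± 0.20, DESeq2 adjusted p = 0.0493). Ccl7, a ligand that attracts monocytes, was at 37.9, 34.2 and 22.0 CPM with CaP and 12.7, 14.5 and 12.6 CPM with SiO2 (log2FC 1.24 ± 0.25 SE, DESeq2 adjusted p = 0.0198). Csf1, the growth factor on which macrophages and osteoclasts depend, was low but separate, at 3.22, 5.59 and 6.83 CPM with CaP, 0.694, 1.46 and 0.964 CPM with SiO2 and 0.263 to 0.507 CPM in M0. Its log2FC of 2.37 ± 0.38 SE was among the larger ones, with a DESeq2 adjusted p of 0.000287.

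Atp6v0d2, the subunit of the V-ATPase that is abundant in osteoclasts, was at 12.3, 15.1 and 16.0 CPM with CaP, 5.06, 4.37 and 4.18 CPM with SiO2 and 0.534, 1.12 and 0.705 CPM in M0. The order M0, SiO2, CaP held for every library, and the difference between the microrods was 3.19-fold (log2FC 1.67 ± 0.23 SE, edgeR adjusted p = 0.0955, DESeq2 adjusted p = 8.47e-07). Cst7, an inhibitor of lysosomal cysteine proteases, was at 15.3, 15.1 and 15.3 CPM with CaP and 6.89, 5.45 and 6.87 CPM with SiO2 (log2FC 1.24 ± 0.23 SE, DESeq2 adjusted p = 0.00487). Ephx1, the microsomal epoxide hydrolase, was at 49.6, 55.9 and 61.9 CPM with CaP and 27.6, 23.2 and 29.8 CPM with SiO2 (1.05 ± 0.17 SE, DESeq2 adjusted p = 0.000109). In all of these the groups were apart. Bdh2, a dehydrogenase, was at 29.3, 22.3 and 20.7 CPM with CaP and 10.6, 8.74 and 10.4 CPM with SiO2, with a log2FC of 1.28 ± 0.20 SE and a DESeq2 adjusted p of 0.000221. The membrane protein gene Tmem98 was at 82.1, 76.8 and 69.3 CPM with CaP and 38.0, 44.1 and 39.1 CPM with SiO2, with a log2FC of 0.91 ± 0.14 SE and a DESeq2 adjusted p of 1.78e-05. Arg1, the arginase that marks IL-4-activated macrophages, was on the lower side, at 4.70, 5.13 and 5.83 CPM with CaP, 10.9, 10.7 and 18.1 CPM with SiO2 and 8.56 to 14.9 CPM in M0. Its log2FC was -1.35 ± 0.28 SE, with a DESeq2 adjusted p of 0.0221. DESeq2 without SiO2 replicate 2 called 10 genes, and Ccl7, Ccl4, Cst7, Arg1 and both genes without a symbol were then not among them.

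**Figure D2:**
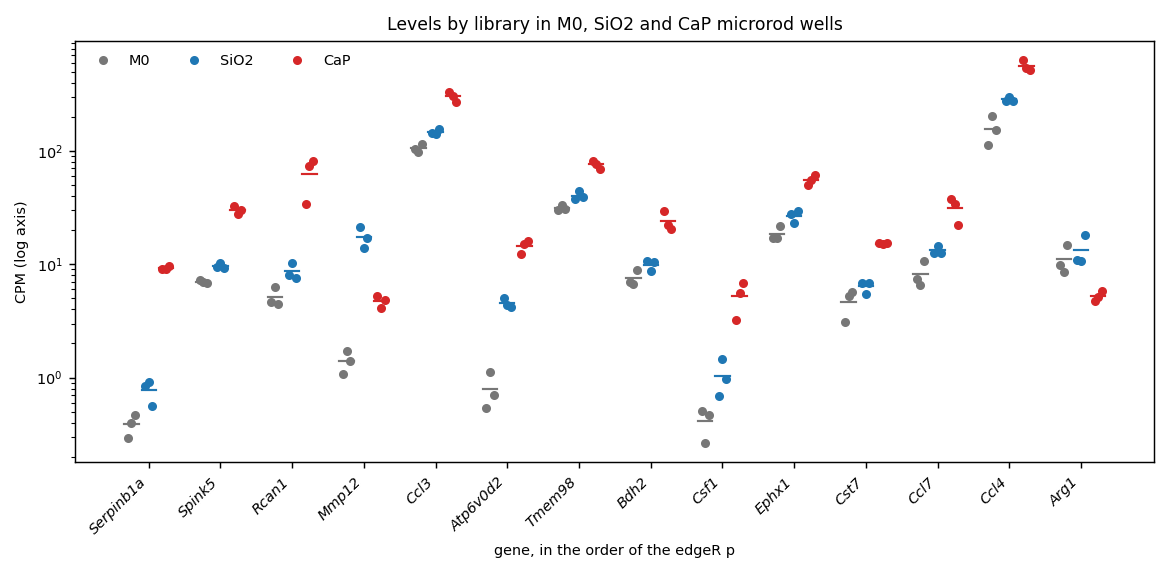
Points are the CPM of single libraries on a log axis and bars their group means, for the 14 genes with a symbol that DESeq2 or edgeR called, in M0 (grey), SiO2 (blue) and CaP (red). CaP points lie apart from SiO2 points in every gene, below them in Mmp12 and Arg1 and above them in the others.

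Of the 2 DEGs of DESeq2 without a symbol, ENSMUSG00000140399 was at 198, 244 and 173 CPM with CaP and 21.6, 24.9 and 24.4 CPM with SiO2, but M0 replicate 1 was as high as the CaP libraries, at 197 CPM, while the other M0 libraries were at 19.3 and 25.3 CPM. This gene became an edgeR DEG when M0 replicate 1 was left out (adjusted p = 0.00155). ENSMUSG00000134611 was at 3.08, 3.80 and 2.98 CPM with CaP and 7.83, 9.13 and 5.78 CPM with SiO2.

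Each microrod was also set against M0 for these genes. Both contrasts use the same M0 libraries, and the CaP and SiO2 libraries are those in which the genes were called, so the values are only placed side by side and their calls against M0 are no further support. The 12 symbol-bearing genes that were higher with CaP than with SiO2 had log2FC of CaP minus M0 from 1.29 (Tmem98) to 4.70 (Serpinb1a). With SiO2 the same genes had log2FC against M0 between 0.37 (Tmem98) and 2.62 (Atp6v0d2), with an edgeR adjusted p of 0.0251 for Atp6v0d2 and above the threshold for the others. Mmp12 had a log2FC against M0 of 1.83 ± 0.28 SE with CaP (edgeR adjusted p = 0.0307) and 3.71 ± 0.27 SE with SiO2 (0.00233). Arg1 had a log2FC against M0 of -1.07 ± 0.28 SE with CaP (edgeR adjusted p = 0.127, DESeq2 adjusted p = 0.0238) and of 0.28 ± 0.28 SE with SiO2.

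**Figure D3:**
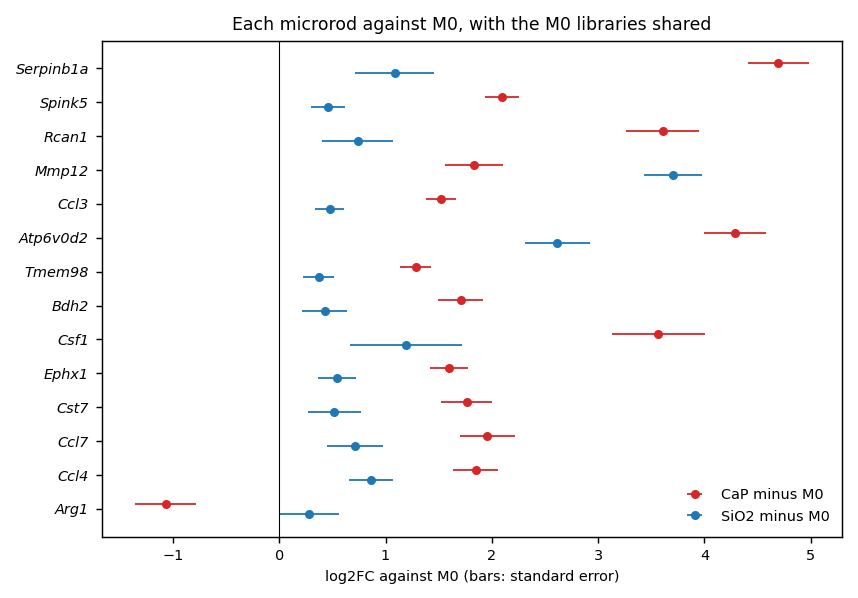
Points are the log2FC of each microrod minus M0 from the edgeR model and bars their standard errors, for the same 14 genes. Atp6v0d2 and Mmp12 are far from 0 with both microrods, Mmp12 further with SiO2 (3.71) than with CaP (1.83), and Arg1 is the only gene below 0 with CaP.

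Genes were next grouped into 27 lists, which were written with earlier results of these data known and are described by counts and medians only. List counts from fits without a library stand beside a different count over all genes at an unadjusted p below 0.05. That count was 311 with all libraries, and 1377, 391 and 239 without CaP replicate 1, 2 and 3. It was 244, 262 and 213 without SiO2 replicate 1, 2 and 3. The calcineurin/NFAT-responsive list had 12 members tested, with a median log2FC of 0.32 and 9 above 0 (75%, against 55.6% of all genes). An unadjusted p below 0.05 was reached by 2 (16.7%, against 1.87%). Without CaP replicate 1 it was reached by 4, and without SiO2 replicate 2 by 3. The median was 0.15 without SiO2 replicate 1 (7 above 0), 0.19 without CaP replicate 2, 0.43 without CaP replicate 1 and 0.46 without SiO2 replicate 2 (11 above 0 in each). Besides Rcan1, Egr3, an immediate-early transcription factor, had an interval above 0, at 3.39, 5.86 and 3.51 CPM with CaP, 2.33, 2.07 and 2.49 CPM with SiO2 and 4.56, 2.96 and 4.23 CPM in M0 (log2FC 0.83, 95% interval 0.18 to 1.47). For Egr3 the CaP libraries overlapped with M0 and the SiO2 libraries lay below it, with log2FC against M0 of 0.06 for CaP and -0.77 for SiO2 (edgeR adjusted p = 0.932 and 0.487). Egr2 had a wider interval (0.97, -0.02 to 1.97), and Nfatc1, which osteoclast precursors induce, was at 0.14 (-0.39 to 0.66). Nr4a1 and Nr4a2, which respond to calcium in many cells, were at -0.04 (-0.74 to 0.67) and -0.05 (-0.78 to 0.68). Of the 48 tested genes for calcium entry, pumps and sensors, none had an unadjusted p below 0.05, their median was -0.06, and the interval lay within a 2-fold difference either way for 42. Without CaP replicate 1 there were 3 higher and 2 lower at such a p, and without SiO2 replicate 2 there was 1 higher.

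Osteoclast-type genes had a median log2FC of 0.18 over 15 tested, 12 of them above 0 (80%, against 55.6% of all genes) and 3 with an unadjusted p below 0.05 (20%, against 1.87%). These counts rested on single libraries, with 1 such gene without CaP replicate 3 (median 0.09), SiO2 replicate 2 (0.31) or SiO2 replicate 3 (0.16), and 4 without CaP replicate 1 (0.30). The 3 were Atp6v0d2, Ocstamp, which takes part in the fusion of osteoclast precursors, and Mitf, a transcription factor of osteoclasts and of lysosomal genes. Ocstamp was at 24.7, 37.1 and 49.3 CPM with CaP and 24.6, 22.2 and 21 CPM with SiO2 (log2FC 0.71, 95% interval 0.13 to 1.29), and its lowest CaP library was level with the highest SiO2 library. Mitf was at 17.4, 22.9 and 19.6 CPM with CaP and 15.2, 15.8 and 14.6 CPM with SiO2 (0.39, 0.02 to 0.77). The collagen-degrading protease Ctsk was at a mean of 0.900 CPM with CaP and 0.653 CPM with SiO2 (0.46, -0.23 to 1.15), and Acp5, Itgb3, Calcr and Car2 did not pass the filter. Genes of phosphate transport and mineralization had a median of 0.14 over 9 tested, which was 0.02 over 10 without CaP replicate 2 and 0.26 over 10 without SiO2 replicate 2. Without CaP replicate 1, where 1377 of all genes had an unadjusted p below 0.05, 4 of 9 did, against 1 with all libraries. That gene, Spp1 (osteopontin), is the most abundant of the list and was at 9623, 9822 and 9111 CPM with CaP, 6368, 6739 and 6024 CPM with SiO2 and 4414, 5048 and 5466 CPM in M0. Its groups were apart, at a log2FC of 0.58 ± 0.13 SE (edgeR adjusted p = 0.874, DESeq2 adjusted p = 0.0877). The phosphate exporter Xpr1 and the importers Slc20a1 and Slc20a2 were at 0.00 (-0.46 to 0.47), -0.10 (-0.73 to 0.54) and 0.27 (-0.34 to 0.88).

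The acidification and degradation machinery had medians near 0. The 18 V-ATPase subunits tested had a median log2FC of 0.00, and the interval of 17 lay within a 2-fold difference either way. The ubiquitous subunit Atp6v0d1, the paralog of Atp6v0d2, was at a mean of 89.2 ± 32.0 CPM with CaP and 101 ± 7.22 CPM with SiO2 (SD, n = 3; log2FC -0.19, 95% interval -0.82 to 0.44). Lysosomal hydrolases and membrane proteins had a median of 0.04 over 45 tested and no unadjusted p below 0.05. The same was true of the 25 damaged-lysosome, autophagy and inflammasome genes (median -0.04), among them Lgals3, which marks ruptured lysosomes, at 0.12 (-0.35 to 0.58). Both of these counts changed without CaP replicate 1. In that fit 1377 of all genes had such a p, against 311 with all libraries. Among them, 4 of the 45 lysosomal genes (29 above 0, median 0.14) and 2 of the 18 V-ATPase subunits (median 0.11) were higher. Of the 25 damaged-lysosome genes, 2 were higher and 1 lower. The lysosomal list moved the other way without CaP replicate 2 (17 above 0, median -0.09) and without CaP replicate 3 (12 above 0, -0.10), with none at such a p. In the fits without CaP replicate 3 and without SiO2 replicate 3, 1 damaged-lysosome gene was lower at such a p.

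The LPS-raised NF-kB targets had the highest median of the lists, 0.42 over 27 genes tested, with 23 above 0 (85.2%, against 55.6% of all genes). An unadjusted p below 0.05 was reached by 6 (22.2%, against 1.87% of all genes), all higher with CaP. All CaP libraries lay above all SiO2 libraries in 10 genes and below them in 1 (40.7% apart, against 8.09% of all genes). The 6 were Ccl3, Ccl7, Ccl4, Cxcl2, Il1rn and Ccl2, of which 5 are chemokines and Il1rn is the antagonist of the IL-1 receptor. Il1rn was at 44.6, 85.6 and 73.5 CPM with CaP, 39.2, 40.7 and 39.6 CPM with SiO2 and 10.5 to 15.2 CPM in M0 (log2FC 0.77, 95% interval 0.23 to 1.30). Cxcl2, a chemokine for neutrophils, was low, at 2.20, 2.00 and 2.80 CPM with CaP and 1.24, 1.15 and 0.883 CPM with SiO2 (1.13, 0.51 to 1.76). Intervals that reached 0 were found for Tnf (0.54, -0.01 to 1.08), for the NF-kB subunits Nfkb2 (0.66, -0.03 to 1.35) and Relb (0.54, -0.08 to 1.17) and for the inhibitor Nfkbia (0.34, -0.04 to 0.72). Other targets were level, such as Sod2 (0.03, -0.26 to 0.31), Cd14 (0.01, -0.31 to 0.33) and Nfkb1 (0.05, -0.39 to 0.48). Ccl5 (-0.45, -0.99 to 0.09) and Il1b (-0.83, -2.09 to 0.43) had values below 0, and Nos2, Il6 and Cxcl1 did not pass the filter. Without SiO2 replicate 2 the median was 0.56 and 8 genes had such a p, and without CaP replicate 1 it was 0.40 with 10 higher and 1 lower. Over 12 chemokines tested, which share Ccl2, Ccl3, Ccl4, Ccl7 and Cxcl2 with this list, the median was 0.37. It was 0.79 over 14 without SiO2 replicate 2 and 0.27 over 12 without CaP replicate 1, with 4 higher and 2 lower at such a p in the latter.

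Interferon-stimulated genes showed the lowest median. It was -0.37 over 29 tested, with 4 above 0 (13.8%, against 55.6% of all genes). An unadjusted p below 0.05 was reached by 8 (27.6%, against 1.87%), all lower with CaP, while none was a DEG with either tool. In 10 genes all CaP libraries lay below all SiO2 libraries and in 1 above (37.9% apart, against 8.09% of all genes). Rtp4 was at 6.30, 3.40 and 5.45 CPM with CaP, 8.38, 13.5 and 9.07 CPM with SiO2 and 5.60, 5.93 and 7.52 CPM in M0 (log2FC -0.98, 95% interval -1.60 to -0.37). Oas1a, an antiviral synthetase, was at 54.3, 52.4 and 59.3 CPM with CaP, 65.4, 83.8 and 69.6 CPM with SiO2 and 46.5 to 60.2 CPM in M0 (-0.40, -0.76 to -0.04). For both genes the CaP libraries overlapped with M0 and the SiO2 libraries were above. Oasl2 (-0.77, -1.35 to -0.19), Ifit3 (-0.66, -1.24 to -0.08), Xaf1 (-0.49, -0.93 to -0.05) and Usp18 (-0.57, -1.12 to -0.01) also had intervals below 0. Bst2 (-0.04, -0.45 to 0.36), Ifi47 (0.01, -0.42 to 0.43) and Oasl1 (-0.02, -0.63 to 0.58) were level, and Stat2 was at 0.48 (-0.13 to 1.09). Against M0, the list's median was 0.10 with CaP and 0.43 with SiO2, with M0 shared. The median depended on single libraries: it was -0.20 without SiO2 replicate 2, with 3 of 29 genes at such a p, and -0.19 without CaP replicate 1, with 6 of 28 lower and 1 higher.

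**Figure D4:**
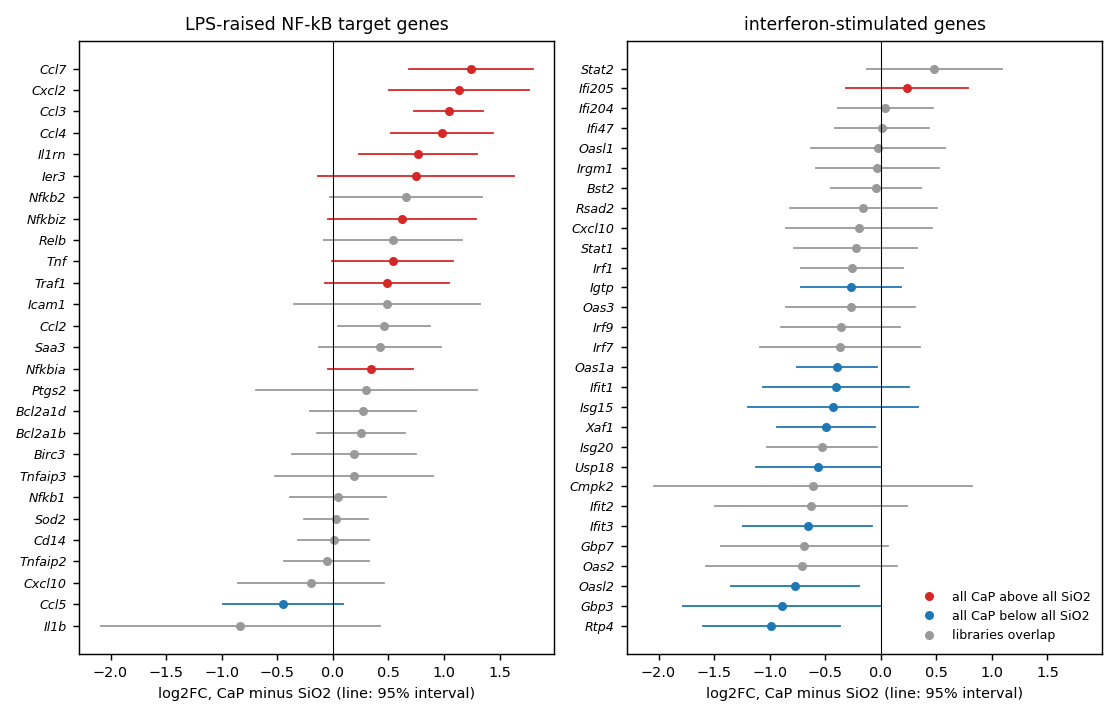
Points are the log2FC of CaP minus SiO2 and lines the 95% intervals for the 27 tested LPS-raised NF-kB targets (left) and the 29 tested interferon-stimulated genes (right). Red marks genes with all CaP libraries above all SiO2 libraries, blue the reverse and grey an overlap, and most points lie right of 0 on the left (23 of 27) and left of 0 on the right (25 of 29).

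With all libraries, the lists of stress genes had small medians. In the unfolded protein and integrated stress response list, 22 of 28 were above 0 (78.6%, against 55.6% of all genes) at a median of 0.09. Ddit3 (CHOP) and Atf4, transcription factors of that response, had an unadjusted p below 0.05 (7.14%, against 1.87% of all genes). Ddit3 was at 51.2, 39.6 and 50.7 CPM with CaP, 27.4, 27.7 and 29.5 CPM with SiO2 and 11.6 to 17.1 CPM in M0 (log2FC 0.74, 95% interval 0.33 to 1.15), and Atf4 was at 104, 115 and 116 CPM with CaP and 83.4, 92.8 and 83.4 CPM with SiO2 (0.37, 0.04 to 0.70). The groups were apart in both. Glycolysis and HIF-1 targets were above 0 in 26 of 32 (81.2%, against 55.6% of all genes), at a median of 0.10. Slc16a3, the lactate exporter, reached 490 and 807 CPM in CaP replicates 2 and 3. It was at 131 CPM in CaP replicate 1, within the 125 to 261 CPM of SiO2. Without CaP replicate 1 the medians of these lists were 0.22 and 0.27. In that fit 8 of 28 and 5 of 32 genes were higher at an unadjusted p below 0.05, against 2 (7.14%) and 1 (3.12%) with all libraries. Over all genes, 1377 had such a p in that fit, against 311 (1.87%) with all libraries. Without CaP replicate 3 the medians were 0.07 and 0.00, with 1 of 28 higher and 1 of 32 lower at such a p. NRF2-responsive genes (median -0.03 over 22), metallothioneins and zinc transporters (-0.02 over 11), p53 and cell death genes (0.02 over 21) and cell cycle genes (-0.02 over 38) held no gene with an unadjusted p below 0.05. Without CaP replicate 1, 4 of the 38 cell cycle genes were higher at such a p (29 above 0 against 18, median 0.13), as was 1 NRF2-responsive gene. These counts stand beside the 1377 of all genes at such a p in that fit, in which 52.8% of all genes were above 0. Without SiO2 replicate 2 the cell cycle median was 0.07, with 29 above 0 and no such p. It went the other way without CaP replicate 2, to -0.11 with 10 above 0 and no such p.

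Among receptors, 7 of 9 tested chemokine receptors and related receptors had values below 0, with a median of -0.15 and no unadjusted p below 0.05. Without CaP replicate 1, 4 of 10 tested were above 0, 1 of them at such a p (median -0.06). Clec4n (Dectin-2), a receptor for fungal glycans, was at 8.71, 9.66 and 8.83 CPM with CaP and 4.66, 5.37 and 4.86 CPM with SiO2 (0.87, 0.33 to 1.41). Fcgr4, an activating IgG receptor, was at 14.5, 17.1 and 17.1 CPM with CaP and 23.3, 22.9 and 22.0 CPM with SiO2 (-0.49, -0.87 to -0.11). These genes were apart in opposite directions, and the 23 scavenger and phagocytic receptors had a median of -0.05. Complement genes had a median of -0.21 over 10, with C1qb at 3.24, 3.33 and 4.04 CPM with CaP, 5.40, 7.29 and 4.78 CPM with SiO2 and 13.5 to 27.1 CPM in M0 (-0.70, -1.37 to -0.02). Without SiO2 replicate 2 no complement gene had an unadjusted p below 0.05, and without CaP replicate 1, 2 were lower (median -0.12). The remaining lists had medians of 0.16 (25 AP-1, EGR and MAPK feedback genes), 0.04 (23 cholesterol synthesis and uptake genes), -0.02 (20 cholesterol efflux and lipid genes), 0.10 (14 alveolar macrophage identity genes) and 0.02 (11 iron genes), and Cpt1a and Egr3 were their only members with an unadjusted p below 0.05. Without CaP replicate 1, 8 of the 25 AP-1, EGR and MAPK feedback genes (median 0.27) and 3 of the 23 cholesterol synthesis genes (0.16) were higher at such a p. That fit had 1377 of all genes at such a p, against 311 with all libraries. The iron median went from -0.22 without CaP replicate 2 to 0.29 without CaP replicate 1, with none at such a p in either.

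**Figure D5:**
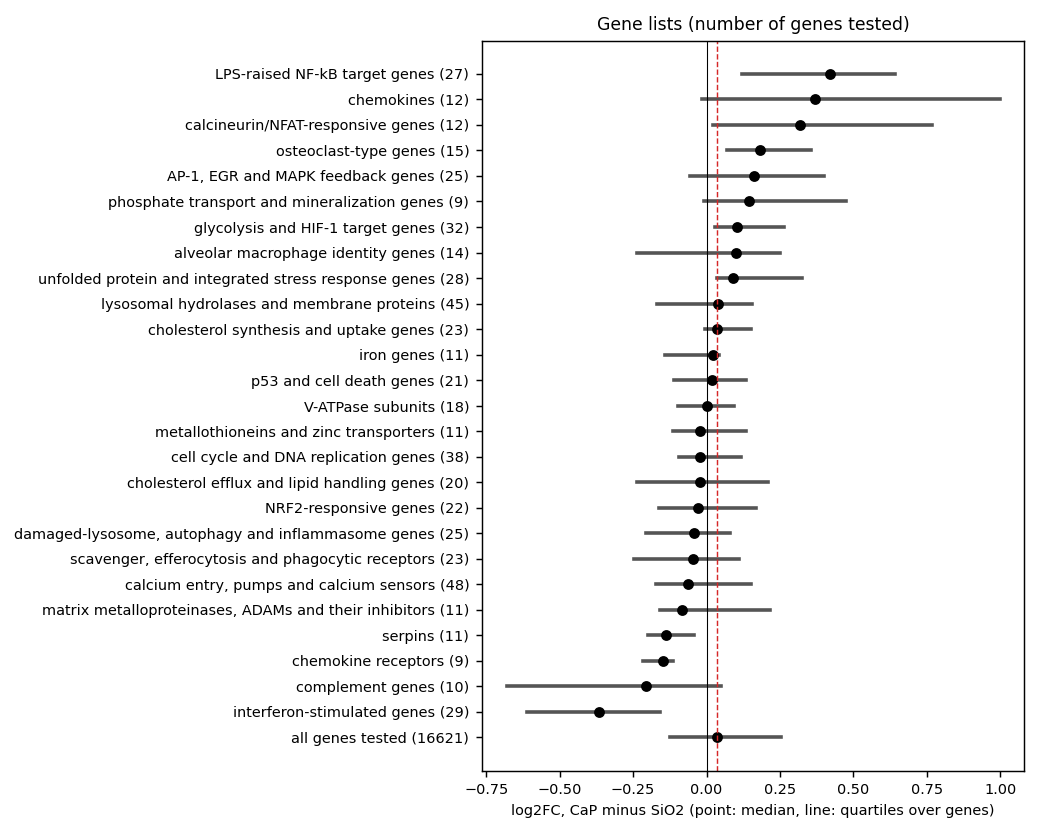
Points are the median log2FC of CaP minus SiO2 over the tested members of each list, with their number in parentheses, lines span the quartiles over genes, and the dashed line is the median of all genes (0.03). The LPS-raised NF-kB targets (0.42) and the interferon-stimulated genes (-0.37) lie at the ends, and the list of myeloid granule proteases, with 1 gene tested, is not drawn.

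Outside the lists, the largest values by the naming rule were mixed in how far libraries of a group agreed. Sgk1, a kinase, was at 3.58, 5.86 and 6.30 CPM with CaP and 2.03, 2.91 and 1.69 CPM with SiO2 (log2FC 1.27, 95% interval 0.45 to 2.09). Ptafr, the receptor for platelet-activating factor, was lower with CaP, at 11.2, 9.59 and 6.63 CPM against 16.6, 17.0 and 23.6 CPM (-1.07, -1.67 to -0.47). Dct, known from melanin synthesis, was at 13.1, 4.26 and 4.16 CPM with CaP and 17.9, 38.3 and 33.7 CPM with SiO2 (-2.02, -3.26 to -0.78), and M0, at 9.94 to 32.7 CPM, overlapped with both. None of these passed either tool's adjusted test.

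How close the microrods were could be bounded only in part. The median SE of log2FC was 0.275. The 95% interval lay within a 2-fold difference either way for 10588 genes (63.7%), for 86.7% of genes above 100 CPM and for 15.5% of those below 1 CPM. For the remaining genes a 2-fold difference was not bounded at this depth and replicate number, so a gene that was not called cannot be taken as equal between CaP and SiO2.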

How the data were processed

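RNA of MH-S cells was sequenced as Smart-seq2 libraries without molecular identifiers. The authors aligned the paired-end reads with STAR and quantified them with Salmon in the nf-core/rnaseq pipeline on Ensembl annotation, with GRCm39 named in the submitters' processing notes, and deposited 1 table of whole-number counts per Ensembl identifier, not normalized or filtered. The whole numbers may be rounded Salmon estimates. All columns were matched to samples by name, and 0 were left unused. Symbols for 51487 of 78317 identifiers came from GENCODE M21, an annotation of another build used only for names, and 15116 of the genes tested had one. Promoter sequences came from RefSeq on GRCm38.p6.

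Counts were analysed in R 4.3.3. Genes were filtered with filterByExpr, scaled with TMM and tested with edgeR 4.0.16 (quasi-likelihood, Benjamini-Hochberg over all genes tested) in a model of the 9 M0, CaP and SiO2 libraries with no term for replicate number. DESeq2 1.42.0, the study's tool, was the first alternative, and the thresholds are those of the study. Intervals are 95% intervals of the edgeR model. For 1 gene alone, exact two-sided permutation of 3 libraries against 3 cannot give a p under 0.1, so adjusted p-values of the models are given. Reads are not independent molecules here, and the depth sets how well genes of few counts were measured. Scripts were tested on simulated data. The other alternatives were another scaling, filter, quasi-likelihood setting or set of libraries, a replicate block, thinned counts and other thresholds, and DESeq2 on 6 libraries and without SiO2 replicate 2 were added after seeing the data. Replicate libraries of a group differed by more than sampling noise in all pairs (chi-square per gene 14.4 to 168) and were counted separately.

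The comparison, the lists and the rule for named genes were chosen with earlier results of these data known. Named were the DEGs of either tool, in each direction the 10 largest log2FC among genes with an unadjusted p below 0.05, a symbol, at least 5 CPM and no overlap between CaP and SiO2 libraries, up to 5 members per list with such a p and the 2 most abundant, and Serpinb1a, Rcan1, Mmp12, Atp6v0d2 and Ccl3. List members outside this rule that are named in the text were chosen after their values were seen. Genes that the rule named and the text does not describe are the most abundant members of lists and genes without a known role.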

Additional observations from a re-analysis of the deposited data

Results flagged for a closer look

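The polarized libraries, 3 of M1 (LPS with IFN-γ) and 3 of M2 (IL-4), were not part of the comparison of CaP with SiO2, and 5 of its genes were higher there than in M0 in the model of all 15 libraries. In M2, Serpinb1a was at 1.84, 2.24 and 1.09 CPM (log2FC against M0 2.109, edgeR adjusted p = 0.00182), Mmp12 at 11.1, 16.6 and 9.56 CPM (3.194, adjusted p = 0.000103) and Atp6v0d2 at 2.25, 2.50 and 1.82 CPM (1.513, adjusted p = 0.0389). In M1, Spink5 was at 14.6, 14.2 and 13.3 CPM (1.02, adjusted p = 0.00201) and Ccl3 at 916, 739 and 780 CPM (2.955, adjusted p = 2.65e-07). The other stimulus gave values on the opposite side of M0 for the same genes. In M2, Spink5 (log2FC -1.503, adjusted p = 0.000646) and Ccl3 (-1.284, adjusted p = 0.00126) were lower than in M0. In M1, Serpinb1a (-1.612, adjusted p = 0.111), Mmp12 (-1.267, 0.117) and Atp6v0d2 (-2.099, 0.0501) did not pass the test. These genes had at most 2, 11 and 4 counts in an M1 library and 11, 40 and 20 in an M0 library. Their values below M0 therefore rest on few counts. Rcan1 did not pass it in M1 (0.182) or M2 (-0.124). Ccl3 in M2, at 37.6, 58.0 and 34.3 CPM, was below the CaP libraries, and in M1 it was above them. The differences between polarized and CaP libraries were not tested.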

How the results depend on the processing

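The number of DEGs between CaP and SiO2, 4 with edgeR, was 16 with DESeq2, 8 without a filter on low counts, 2 where every library had to reach 10 counts, 2 with the 6 microrod libraries alone, 25 with DESeq2 on those 6 and 10 with DESeq2 without SiO2 replicate 2, and between 1 and 3 when each library was left out. Without CaP replicate 2, CaP replicate 3 or any SiO2 replicate Serpinb1a was the only DEG, and without CaP replicate 1 the genes at an unadjusted p below 0.05 went from 311 to 1377. It was 3 or 4 under the other scaling, quasi-likelihood, depth, 15-library and threshold settings. Serpinb1a was called in every setting that tested it, and it did not pass the filter of 10 counts. Mmp12 was called by edgeR only in the model as reported, with robust quasi-likelihood and without a filter. With a replicate block 1 gene, Serpinb1a, was called. Deviations of same-numbered CaP and SiO2 libraries correlated at 0.350, 0.615 and -0.109, and not every library correlated best with its own number. The deviations within a group of 3 cancel out, so these correlations are tied together and cannot show whether same-numbered libraries shared a batch. The labels give only a number, and the block was not used in the main model. No named gene changed direction while called. DESeq2's scaling and TMM gave the same median over all genes (0.034). The cause of these changes was not tested.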

Other observations

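Several of the largest differences in log2FC rested on single libraries. Zfp12 was at 690 CPM in CaP replicate 1 and at no more than 1.63 CPM in the other 8 libraries of the model, and Zfp212 (24.1 CPM against 1.92 to 4.02 CPM) and Hp1bp3 (80.3 CPM, with 46.9 CPM in M0 replicate 1 and 8.83 to 13.9 CPM elsewhere) were high in the same library. A830008E24Rik was at 252 and 183 CPM in SiO2 replicates 1 and 3 and at 200 CPM in M0 replicate 1, against 2.37 to 5.66 CPM in the others. Scyl3 was at 969 CPM in SiO2 replicate 2 and at 797 and 805 CPM in M0 replicates 2 and 3, against 96.9 to 193 CPM in the others. What these libraries share was not tested.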
